A study of Rattus norvegicus with 6 samples.

Results

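Amino acid transporters of the plasma membrane carry the building blocks of insulin, and signals such as leucine and arginine, into the beta cell. Of these transporters 10 genes were followed in beta cells of fed and fasted rats. They were taken by symbol, for their function, out of 14217 genes that the annotation of the array pairs with a single symbol, and 14 of the 31042 probe sets tested (groups of short probes against 1 transcript) belonged to them. Each gene was represented by its probe set with the highest mean over the 6 arrays, and the further probe sets of Slc7a1 and Slc38a1 served as a check. The cells were freshly isolated beta cells of 10-week-old male Wistar rats, sorted by fluorescence (FACS) to 92 ± 3% insulin-positive cells as the labels give it. Rats of the control group were fed ad libitum and those of the other group had gone without food for 24 h. Each group held 3 isolates, each of them a pool of 5 rats on 1 array that counts as 1 sample, and the study calls them independent. The deposited values are linear intensities.

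The transporters form small families with different substrates. Slc3a2 is the heavy chain that brings its light chains, such as Slc7a5 and Slc7a8, to the cell surface, where they exchange large neutral amino acids. Slc7a1 and Slc7a2 carry arginine and lysine, whose positive charge depolarizes the beta cell, while Slc1a4 and Slc1a5 exchange small neutral amino acids and glutamine. Slc38a1, Slc38a2 and Slc38a4 take up alanine, glutamine and related amino acids together with sodium. In many cells the transcription factor ATF4, which is made when amino acids run short, raises the transcripts of several of these genes.

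No transporter of the set was called lower or higher after fasting. A call required both 1.5-fold or more and an unadjusted p under 0.05 from limma, a moderated test over all probe sets, and 0 of 10 genes met both, against 10.8% of all probe sets tested (8.43% lower and 2.37% higher). With p alone, 3 genes were under 0.05 in limma, Slc7a1 and Slc38a4 on the side of higher and Slc7a8 on the side of lower intensity, against 14.9% of all probe sets (4622). In the same 3 genes no fasted array overlapped with a fed one, against 22.8% of all probe sets. Among those brighter than the median probe set, as all 10 transporters were, the share was 30.4%. Adjusted by the Benjamini-Hochberg method over all 31042 probe sets, 0 genes were under 0.05 in limma, and the smallest adjusted p of the set was 0.303. None of the probe sets on the arrays passed this adjusted threshold. The 95% interval of the change lay within 1.5-fold in both directions for 6 of the 10, Slc3a2, Slc7a1, Slc7a5, Slc7a8, Slc38a2 and Slc38a4. This held for 12.9% of all probe sets and for 21.5% of the 15520 that were brighter than the median probe set, as all 10 transporters were. Neither share is matched for intensity, since these 6 genes had fed means of 266 to 1340 and the median probe set a mean of 20.2. For Slc7a2, Slc1a4, Slc1a5 and Slc38a1 the interval reached beyond 1.5-fold, so that a change of that size cannot be called absent. All these intervals are of the brightest probe set and of the deposited values only. Of the dimmer probe sets of Slc7a1, 1 gave 2.84-fold and the other a log2 ratio of -0.07. With arrays set to the same 75th percentile the log2 ratio was 0.52 for Slc7a1 and 0.47 for Slc38a4, and intervals are not given there.

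**Figure D1:**
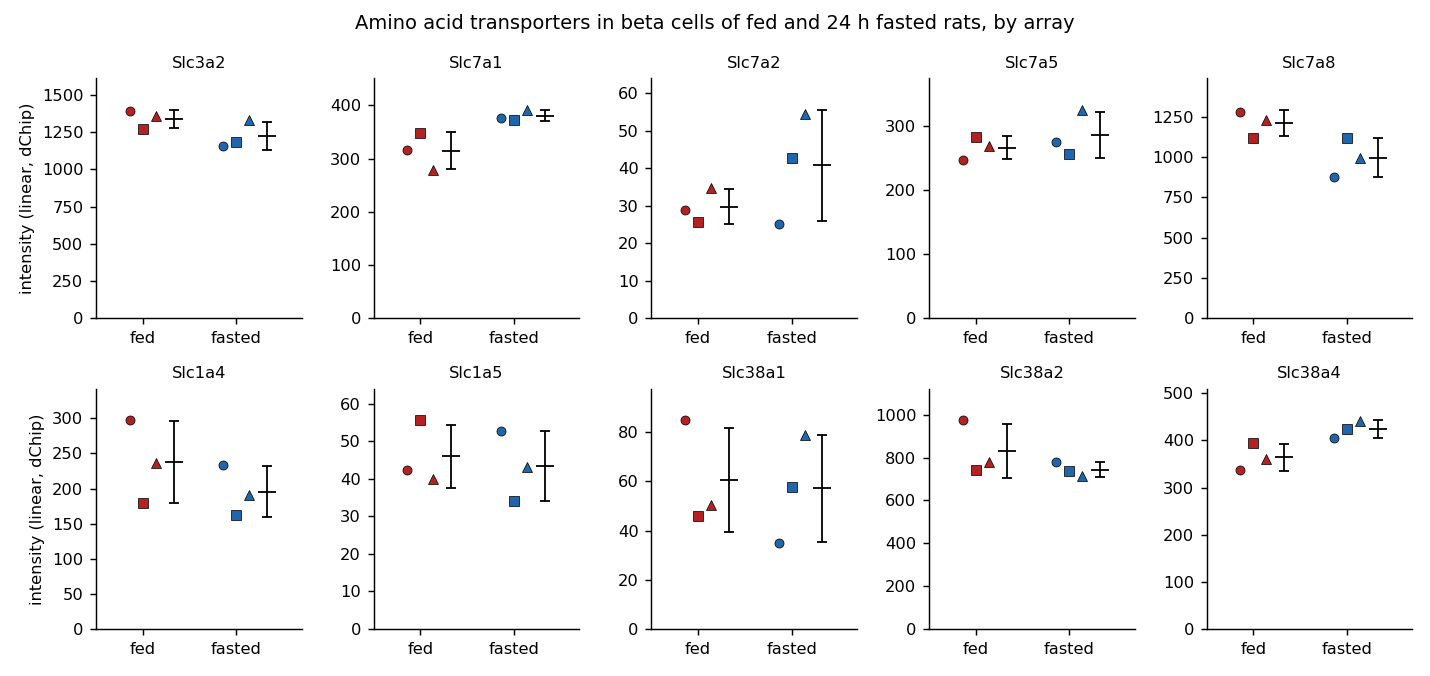
Intensity (linear, dChip) of the 10 transporters on each array, with fed rats in red and fasted rats in blue; circles, squares and triangles are replicates 1, 2 and 3, and bars give the mean and SD of 3 arrays. The groups lie apart for Slc7a1, Slc7a8 and Slc38a4 and overlap for the other 7.

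The arrays limit these statements in a few ways. The median intensity was 20.2 to 21.8 on arrays of fed rats and 17.1 to 21 on those of fasted rats, so that the median log2 ratio of fasted over fed was -0.20 over all probe sets as deposited, -0.02 with quantile normalization and 0.01 with arrays set to the same 75th percentile. The calls over all probe sets shifted with this, from 2616 lower and 737 higher to 1495 and 1263 after quantile normalization and to 1326 and 1426 after scaling to the 75th percentile. Some log2 ratios of the transporters are for this reason set against that median as well. Ins2, an insulin gene of the rat, had 5784 ± 93.5 with food and 5898 ± 139 without (SD, n = 3 each), and 0 of 8 measured beta cell markers were called. Acinar transcripts were present as well, with trypsinogen Prss1 at 6297 ± 50.9 and 6449 ± 186 (SD, n = 3 each), and 1 of 17 acinar markers (Ptf1a) was lower. These intensities lie near the top of the range, since the highest value on the arrays was 7629, and whether the probes were saturated was not tested, so that they do not show a stable level. The glucagon transcript of alpha cells, Gcg, varied more within the fed group (4426, 7629 and 3532) than within the fasted group (4958, 5769 and 5261), and the groups overlapped. Fed replicate 2 was the high array. Relative to their mean over all arrays, the 9 measured alpha cell markers had a mean log2 level of 1.01 there. It was -0.72 to -0.02 on the others. Delta and PP (0.68), stromal (0.49), leukocyte (0.37) and erythroid markers (0.39) were highest there too. Beta, acinar, duct and endothelial markers were not. The part of these cells in the results for the transporters was not tested. Of 13 leukocyte markers 0 were called and 3 were brighter than the median probe set. Csf1r of macrophages was among them, with 34.7 to 68.5 over the 6 arrays. So was Cd74, with 103 on fed replicate 2 and 15.3 to 31.2 on the others. The T cell marker Cd3e lay under the floor on every array. In sorted but not pure cells, fewer cells of a type and less RNA per cell cannot be told apart.

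The heavy chain Slc3a2 and its light chain Slc7a5 overlapped between fed and fasted rats, and neither passed the test. Slc3a2 measured 1391, 1272 and 1358 in fed and 1161, 1183 and 1332 in fasted rats. The fasted arrays were on average below the fed ones, but fasted replicate 3 lay among them. The log2 ratio of fasted over fed was -0.13 (95% interval -0.33 to 0.07, limma unadjusted p = 0.161), which is 0.07 above the median of all probe sets. Slc7a5, the exchanger LAT1 that imports leucine in return for glutamine, measured 246, 282 and 269 in fed and 274, 256 and 325 in fasted rats. The groups overlapped, with a log2 ratio of 0.10 (95% interval -0.19 to 0.38, limma unadjusted p = 0.448). It was -0.002 without fasted replicate 3, the brightest array for this gene.

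Slc7a8, the related exchanger LAT2 that also accepts small neutral amino acids, lay lower in fasted rats on each array. It measured 1280, 1120 and 1231 in fed and 875, 1116 and 992 in fasted rats, or 1210 ± 82 and 994 ± 121 (SD, n = 3 each). The groups were apart, although the lowest fed array (1120) and the highest fasted one (1116) nearly met. The log2 ratio was -0.29 (95% interval -0.56 to -0.02, limma unadjusted p = 0.0386, adjusted p = 0.314) and thus did not reach 1.5-fold. Relative to the median of all probe sets the difference was -0.09, and without single arrays p passed 0.05 for fed replicates 1 and 3 and fasted replicates 1 and 3 (up to unadjusted p = 0.119, limma). The log2 ratio shrank to -0.15 (unadjusted p = 0.171) after quantile normalization and to -0.04 (unadjusted p = 0.73) after scaling to the 75th percentile in limma. The mean log2 level of the 17 acinar markers, relative to their mean over all arrays, was 0.06, -0.01 and 0.22 on the fed arrays and -0.24, -0.07 and 0.04 on the fasted ones, and thus lowest on fasted replicate 1, as Slc7a8 was. That array was also the dimmest as a whole (median 17.1), and the further transporters (-0.24), the genes of mTORC1 sensing (-0.23) and those of amino acid metabolism (-0.30) were lowest there too. The acinar markers' summed intensity was 75752 to 83237 in fed and 68658 to 80039 in fasted rats. The part of the acinar cells and of the array's dimness in the result was not tested.

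The carriers of cationic amino acids had the highest log2 ratios of the set. Slc7a1, the carrier CAT1, measured 316, 349 and 279 in fed and 377, 373 and 392 in fasted rats. Each fasted array was above each fed one, with means of 315 ± 35 and 381 ± 10 (SD, n = 3 each). The log2 ratio was 0.28 (95% interval 0.03 to 0.53, limma unadjusted p = 0.033, adjusted p = 0.303), a 1.21-fold difference under the threshold of 1.5-fold. It was larger once arrays were scaled alike, with 0.39 (unadjusted p = 0.00808) after quantile normalization and 0.52 (unadjusted p = 0.00516) after scaling to the 75th percentile in limma, both still under 1.5-fold. Only without fed replicate 2 or fasted replicate 1 did p stay under 0.05, and without fed replicate 3 the log2 ratio was 0.20 (limma unadjusted p = 0.0952).

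The 3 probe sets of Slc7a1 did not give the same result. On the second, 1368392_at, fed rats measured 167, 198 and 165 and fasted rats 161, 171 and 169, with overlap and a log2 ratio of -0.07 (95% interval -0.34 to 0.19, limma unadjusted p = 0.513). The dimmest, 1387167_at, rose from 12, 4.41 and 7.38 to 19.1, 21.1 and 22. This is 2.84-fold (95% interval of the log2 ratio 0.44 to 2.57, limma unadjusted p = 0.0134, adjusted p = 0.264), past both thresholds, at intensities that in fed rats lay below the median of their arrays. It was the only one of the 4 further probe sets of the transporters to be called. With the mean of all 3 probe sets the log2 ratio was 0.57 (limma unadjusted p = 0.00524), just under 1.5-fold. Which part of the transcript each probe set reads was not looked up here.

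Slc7a2, the carrier CAT2, was dim and varied most among the fasted arrays of the pair. It measured 28.9, 25.6 and 34.8 in fed and 25.1, 42.7 and 54.6 in fasted rats. Fasted replicate 1 was the lowest of all 6 arrays and the other 2 fasted arrays were the highest. The log2 ratio was 0.40 (95% interval -0.42 to 1.21, limma unadjusted p = 0.283), and without fasted replicate 1 it was 0.71 (limma unadjusted p = 0.0258) and met both thresholds, the one call for a transporter of the set under any alternative tried.

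**Figure D2:**
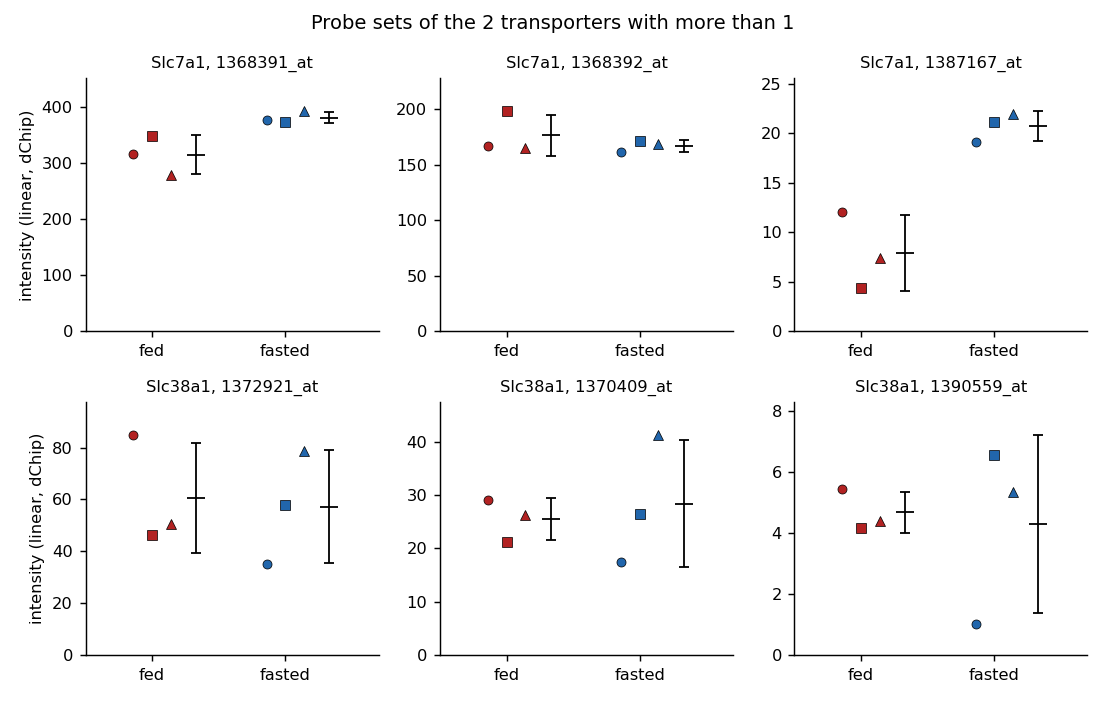
Intensity (linear, dChip) of each probe set of Slc7a1 (top) and Slc38a1 (bottom) by array, fed in red and fasted in blue; circles, squares and triangles are replicates 1, 2 and 3, bars the mean and SD of 3 arrays. Slc7a1 was apart between the groups on the brightest and dimmest probe sets and not on the other one, and Slc38a1 overlapped on all 3.

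The exchangers of small neutral amino acids overlapped between the groups. Slc1a4 (ASCT1), which prefers alanine, serine and cysteine, measured 297, 180 and 237 in fed and 234, 162 and 191 in fasted rats. Replicate 2 was the lowest array of both groups. The log2 ratio was -0.27 (95% interval -0.81 to 0.26, limma unadjusted p = 0.261), close to the median of all probe sets (-0.07 relative to it). Slc1a5 (ASCT2), a main glutamine exchanger of many dividing cells, measured 42.4, 55.6 and 40.1 in fed and 52.9, 34.1 and 43.2 in fasted rats. Its log2 ratio was -0.09 (95% interval -0.68 to 0.49, limma unadjusted p = 0.714) as deposited and 0.15 after either scaling, so that no direction can be given.

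Among the sodium-coupled carriers, Slc38a4 lay higher after fasting. Slc38a4 (SNAT4), an amino acid carrier best known from liver, measured 337, 395 and 360 in fed and 405, 425 and 442 in fasted rats. The groups did not overlap, and the means were 364 ± 29 and 424 ± 18.4 (SD, n = 3 each). The log2 ratio was 0.22 (95% interval 0.01 to 0.44, limma unadjusted p = 0.0455, adjusted p = 0.329), or 1.17-fold. It was 0.35 (unadjusted p = 0.00677) after quantile normalization and 0.47 (unadjusted p = 0.00482) after scaling to the 75th percentile in limma, and thus kept its direction and stayed under 1.5-fold. As for Slc7a1, p stayed under 0.05 only without fed replicate 2 or fasted replicate 1, and without fed replicate 1 the log2 ratio was 0.17 (limma unadjusted p = 0.138).

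The other carriers of this family did not differ beyond the spread of the arrays. Slc38a2 (SNAT2), which many cells raise when amino acids are scarce, measured 974, 741 and 780 in fed and 780, 739 and 714 in fasted rats. Fed replicate 1 was the high array, and the remaining 5 lay between 714 and 780. The log2 ratio was -0.15 (95% interval -0.44 to 0.14, limma unadjusted p = 0.247), and 0.09 after scaling to the 75th percentile. Slc38a1 (SNAT1) measured 84.8, 46.1 and 50.4 in fed and 35.1, 57.7 and 78.7 in fasted rats. Both groups spread widely, with a log2 ratio of -0.10 (95% interval -1.01 to 0.81, limma unadjusted p = 0.795) on this probe set and of 0.08 and 0.06 on its dimmer ones.

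**Figure D3:**
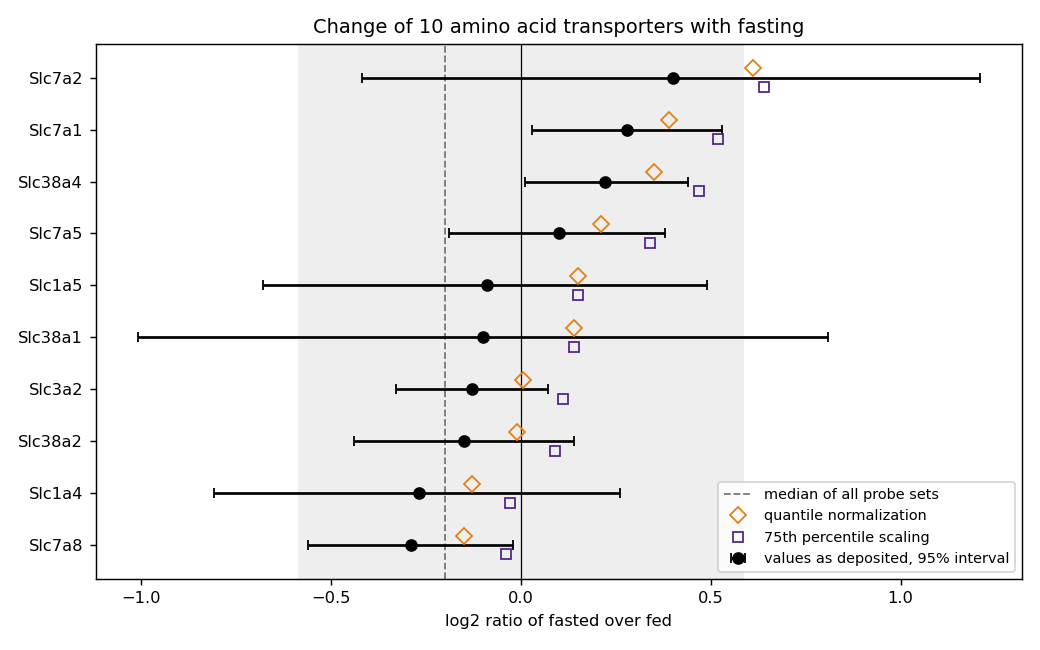
Log2 ratio (fasted over fed) of each of the 10 transporters. Points and bars are the deposited values with the 95% interval from limma, open diamonds and squares the ratio after quantile normalization and 75th percentile scaling; the grey band is 1.5-fold and the dashed line the median of all probe sets, -0.20. Slc7a1, Slc7a2, Slc7a5 and Slc38a4 lie to the right of 0 under each scaling.

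Over the set, 6 of 10 log2 ratios were below 0, against 66.3% of all probe sets. The median of the set was -0.10, between -0.29 (Slc7a8) and 0.40 (Slc7a2), and stood 0.10 above the median of all probe sets. It turned to 0.14 after quantile normalization and to 0.15 after scaling to the 75th percentile, so that a common direction of the set depends on the scaling of the arrays. Slc7a1, Slc7a2 and Slc38a4 were positive and Slc7a8 and Slc1a4 negative under all 17 alternatives. Ratios between transporters on the same array are not changed by a single factor per array, such as scaling to the 75th percentile, although quantile normalization can change them. The ratios given here are those of the deposited values. In 7 related pairs the log2 ratio of one gene to the other was compared between the groups with an exact permutation test, which with 3 against 3 arrays cannot go below p = 0.10. The ratio of Slc7a5 to Slc7a8 was higher by 0.38 in fasted rats (exact p = 0.2, adjusted over the 7 pairs 0.467) and that of Slc38a4 to Slc38a2 by 0.37 (exact p = 0.2, adjusted 0.467). The ratio of Slc7a5 to the heavy chain Slc3a2 differed by 0.23 (exact p = 0.2, adjusted 0.467), and in all 7 pairs the groups overlapped.

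The element that ATF4 binds with C/EBP factors was looked for in the promoters. The stretches that hold it are shown because 3 transporters, none of them called on these arrays, share it. The motif TGATGNAAN was searched on both strands in the 250 bases before and 50 after the start of each gene (RefSeq, build GRCr8). The table held a promoter for 8 of the 10 transporters, not for Slc7a2 and Slc1a5, in 9 promoters since Slc3a2 has 2. Of the 9 promoters 3 had a match, against 3.97% of all 33469 promoters. The matched stretches are printed from 5′ to 3′ on the strand of the gene, with the match in capitals. Slc7a1 matched 30 bases before the start (chr12:11664438-11664486, plus strand), Slc38a1 142 bases before it (chr7:129681515-129681563, minus strand) and Slc1a4, on the opposite strand of the gene, 236 bases before it (chr14:98761770-98761812, minus strand). A match is a description of the letters and was not tested as a site. Bases outside this window were not searched, so a missing match does not show that a gene lacks the element.
Slc7a1: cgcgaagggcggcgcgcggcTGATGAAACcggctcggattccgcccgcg
Slc38a1: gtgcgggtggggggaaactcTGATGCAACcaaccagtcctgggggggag
Slc1a4: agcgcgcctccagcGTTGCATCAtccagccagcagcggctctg
None of these 3 genes was called. Slc7a1 lay higher after fasting on its brightest probe set, while Slc38a1 and Slc1a4 overlapped between the groups. Differences between the 3 were not tested.

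Further transporters of amino acids did include lower ones. Of 30 measured genes of this list, 5 were called lower and 0 higher, against 8.43% and 2.37% of all probe sets. The list's median log2 ratio was -0.12. Only 11 of the 30 were brighter than the median probe set. Slc7a6, a further light chain of Slc3a2 that exchanges cationic for neutral amino acids, measured 151, 131 and 148 in fed and 53, 93.4 and 86.6 in fasted rats. This is a log2 ratio of -0.92 (limma unadjusted p = 0.00701, adjusted p = 0.225), with the groups apart. Slc7a11, the light chain that imports cystine in return for glutamate, fell from 21.4 ± 1.59 to 9.62 ± 2.17 (SD, n = 3 each), which in fasted rats is below the array medians, with a log2 ratio of -1.17 (limma unadjusted p = 0.00953, adjusted p = 0.243). Both kept their call under each alternative in which they were measured, among them both scalings. The set's own light chains Slc7a5 and Slc7a8 were not called, and the difference between light chains was not tested.

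Slc38a5 (SNAT5), a sodium-coupled carrier of glutamine, measured 2360, 2559 and 2598 in fed and 1087, 1954 and 1829 in fasted rats. Its log2 ratio was -0.67 (limma unadjusted p = 0.0234, adjusted p = 0.286). Fasted replicate 1 was the low array, and without it the ratio was -0.41 and missed 1.5-fold, as it did after quantile normalization (-0.57) and scaling to the 75th percentile (-0.43). Without any 1 of the fed arrays p passed 0.05 (limma unadjusted p = 0.0507 to 0.0706). Slc38a5 is also a marker of alpha cells in mice and stood in the alpha cell list, of which it and Fev were the 2 lower of 9 measured genes. Without Slc38a5 itself, the summed intensity of the other 8 genes of that list was 6277 to 11241 in fed and 7379 to 8578 in fasted rats. Fasted replicate 1 was also the dimmest array (median 17.1) and had the lowest mean log2 level of the acinar markers (-0.24). The part of alpha cells, acinar cells and the array's dimness in the result was not tested. Slc7a4, a gene related to the cationic carriers, went from 47.1 ± 8.74 to 18.3 ± 12 (SD, n = 3 each), a log2 ratio of -1.54 (limma unadjusted p = 0.0185), and Slc16a10, a carrier of aromatic amino acids, one of -0.93 (limma unadjusted p = 0.0347). Slc7a4 had a p over 0.05 without fed replicate 1 or 3 or fasted replicate 1 (log2 ratios -1.41, -1.52 and -1.43), and Slc16a10 without any 1 array other than fasted replicate 3 (-0.62 to -0.99). The taurine carrier Slc6a6 measured 239 ± 13.5 with food and 303 ± 18.8 without (SD, n = 3 each) with a log2 ratio of 0.34 (limma unadjusted p = 0.00895), under 1.5-fold, and -0.19 on its dimmer probe set. The count of lower genes in the list was 3 without fasted replicate 1, fed replicate 2 or fed replicate 3, and 2 without fed replicate 1.

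Of 25 measured genes of the amino acid response, 2 were called lower and 2 higher, against 8.43% and 2.37% of all probe sets. The lower ones were near the background. The list holds the sensor kinase of a shortage as well as genes that respond to it. The median log2 ratio of these 25 was -0.01. The transcript of Atf4 itself measured 2815 ± 125 with food and 2803 ± 129 without (SD, n = 3 each). The pseudokinase Trib3, an ATF4 target, measured 208, 190 and 189 in fed and 459, 230 and 302 in fasted rats, a log2 ratio of 0.70 (limma unadjusted p = 0.029, adjusted p = 0.294). It lost its call when any array but fasted replicate 2 was left out (0.43 without fasted replicate 1). Its 2 dimmer probe sets were called higher too (log2 ratios 0.89 and 0.70). Eif4ebp1, the brake on cap-dependent translation, rose from 97.3 ± 0.657 to 177 ± 45.3 (SD, n = 3 each), and the sensor kinase GCN2 (Eif2ak4) fell from 77.1 ± 8.19 to 46 ± 8.24 (SD, n = 3 each). GCN2 missed 1.5-fold after either scaling (-0.51 in both). Ddit4, the other gene of the list called lower, fell from 197 ± 17.6 to 108 ± 49.2 (SD, n = 3 each). Its log2 ratio was -0.98 (limma unadjusted p = 0.0327, adjusted p = 0.302), and it kept its call in 10 of 17 alternatives. Atf3 had a log2 ratio of -0.36 (limma unadjusted p = 0.00632, adjusted p = 0.22), under 1.5-fold with the groups apart. Asparagine synthetase, Asns, had a log2 ratio of 0.37 (limma unadjusted p = 0.0272) and Atf5 one of 0.50 (limma unadjusted p = 0.00044, adjusted p = 0.155), neither at 1.5-fold, with the groups apart in both. After quantile normalization (0.63) and scaling to the 75th percentile (0.74) Atf5 was called higher. The counts moved with the scaling to 4 higher and 1 lower after quantile normalization and 7 higher and 1 lower after scaling to the 75th percentile.

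In the machinery that senses amino acids for mTORC1, the kinase complex of growth, 4 of 32 measured genes were lower and 1 was higher (8.43% and 2.37% of all probe sets). The median of -0.23 was near that of all probe sets, -0.20. After quantile normalization the counts were 2 and 2, and after scaling to the 75th percentile 2 and 3. Wdr24, a subunit of the GATOR2 complex, fell from 148 ± 24.8 to 79.4 ± 10.8 and Fnip2, a partner of folliculin, rose from 265 ± 41.8 to 466 ± 47.7 (SD, n = 3 each). The mean of all probe sets of Fnip2 did not reach 1.5-fold (0.52). The lower genes fell to 2 without any 1 of the arrays except fasted replicate 3.

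Of 22 measured aminoacyl-tRNA synthetases and partners, which load amino acids onto tRNA, 1 was lower (Wars1, log2 ratio -0.70, limma unadjusted p = 0.0262) and 0 were higher (8.43% and 2.37% of all probe sets), with a median of -0.13. Wars1 lost its call after either scaling and without fed replicate 1 or 3 (-0.75 and -0.58) or fasted replicate 1 (-0.45). The serine enzyme Sars1 measured 233, 221 and 243 in fed and 305, 328 and 303 in fasted rats, a log2 ratio of 0.43 (limma unadjusted p = 0.00205, adjusted p = 0.178) with the groups apart but under 1.5-fold. Of 28 measured enzymes and carriers of amino acid metabolism 5 were lower and 1 was higher (8.43% and 2.37% of all probe sets), with a median of -0.30. Ornithine decarboxylase (Odc1), the first enzyme of polyamine synthesis, measured 493, 440 and 414 in fed and 253, 273 and 291 in fasted rats. Its log2 ratio was -0.72 (limma unadjusted p = 0.000336, adjusted p = 0.155), and -0.47 after scaling to the 75th percentile. The count of lower enzymes was 3 without fed replicate 1 or 2 or fasted replicate 1 or 2, and 2 without fed replicate 3.

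**Figure D4:**
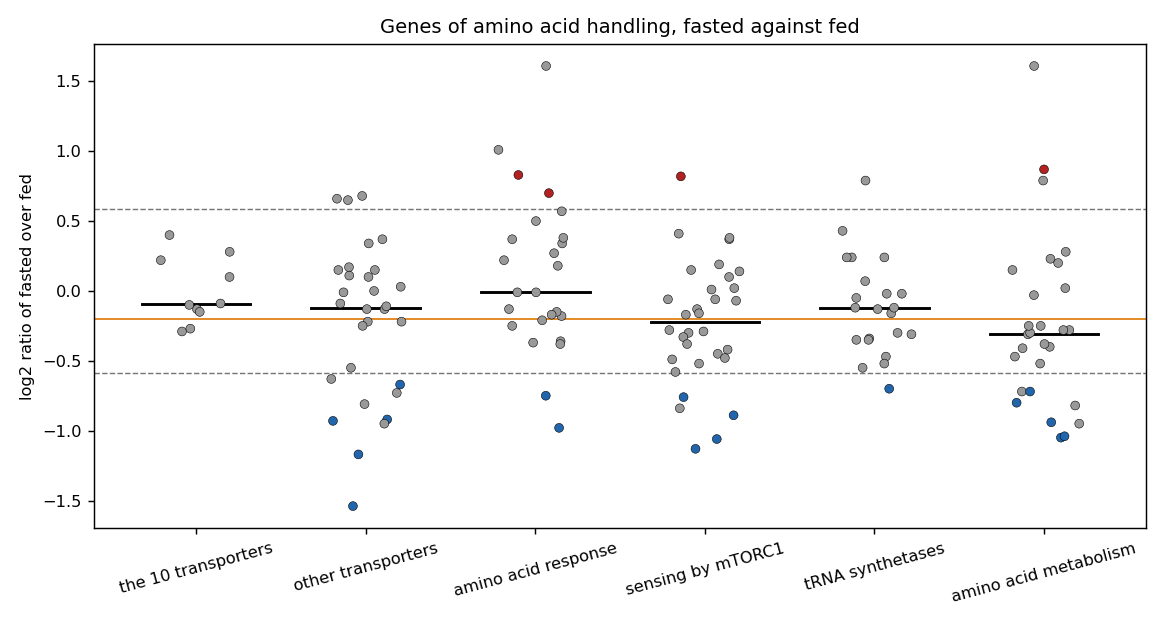
Log2 ratio of fasted over fed on the brightest probe set of each gene, by list; blue points were called lower and red points higher (1.5-fold, unadjusted limma p under 0.05), grey points did not pass, black bars are medians, dashed lines 1.5-fold and the orange line the median of all probe sets, -0.20. The 10 transporters lie between -0.29 and 0.40, with 0 called, and the further transporters between -1.54 and 0.68.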

How the data were processed

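Total RNA of the isolates (RIN at least 8), extracted in 1 batch per the labels, was hybridized on Affymetrix rat arrays. The deposited intensities are model-based values of dChip. Per the authors' methods, arrays were first normalized against the one of median intensity and the mismatch signal served as background. No source used here gives the dChip version or detection calls. Raw scans and scan dates were not used, so neither another background correction nor a scan batch was tried.

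From the deposited values 57 control probe sets were left out. Values under the 10th percentile (3.27) were raised to it, which understates changes of dim probe sets, and limma 3.58.1 (R 4.3.3; lmFit, then eBayes with the intensity trend) compared the log2 values of 2 groups, two-sided. Adjustment was by Benjamini-Hochberg, over 31042 probe sets. The study's thresholds of fold and p were used, with limma in place of dChip's own comparison. The shares called here are therefore not those of the study. Intervals are those of limma at 95%, and the number of arrays limits their precision. Means and SDs are of linear intensities. The fit was tested on simulated data. Genes were named only from probe sets with 1 symbol (20826, of which 20758 matched the RefSeq gene table of GRCr8 by gene number). Levels of different probe sets were not compared.

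The transporters and gene lists were chosen with earlier results of these data known. Genes named from a list were those past both thresholds, up to 6, and the 2 others with the largest moderated t, of which some are given. Atf4, Asns and the cell type markers were added to them after their values were seen. Stretches with a motif match were printed after values were seen. Alternatives were Welch's comparison of linear values as the form nearest to dChip's, a filter on dim probe sets, another floor (25th percentile), a pseudocount, 2 scalings, no trend, robust variance, array weights, a replicate block, leaving out each array, and averaging every probe set of a gene. Lists of delta and PP, duct, endothelial, stromal and erythroid cell markers had 0, 1, 1, 1 and 0 genes called, the 3 called ones higher. Figures were drawn with matplotlib 3.10.9.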

Additional observations from a re-analysis of the deposited data

How the results depend on the processing

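Under 17 alternatives the 10 transporters gave 170 values, of which 1 was called, that of Slc7a2 without fasted replicate 1 (0.71), so that the count of higher transporters was 0 to 1 over the fits without 1 array. The sign was kept in 156 values. It turned after scaling to the 75th percentile for Slc3a2 (0.11), Slc1a5 (0.15), Slc38a1 (0.14) and Slc38a2 (0.09), after quantile normalization for Slc3a2 (0.004), Slc1a5 (0.15) and Slc38a1 (0.14), with the mean of all probe sets for Slc38a1 (0.01) and with array weights for Slc7a5 (-0.03). Without 1 array the range was -0.002 to 0.17 for Slc7a5, -0.25 to 0.07 for Slc1a5 and -0.37 to 0.21 for Slc38a1. With all arrays, p was over 0.05 for Slc7a1, Slc7a8 and Slc38a4 with no intensity trend or the replicate block, for Slc7a1 also with Welch's comparison or a pseudocount, for Slc7a8 with Welch's comparison, array weights or either scaling, and for Slc38a4 with a pseudocount, robust variance or dim probe sets left out. None of 31 other genes picked by the naming rule turned. That rule took genes by their thresholds and moderated t in these same data, so their kept sign is no measure against the transporters. The smallest adjusted p of a transporter was 0.0234 (Slc38a4, with array weights, limma), a fit that stopped before convergence and gave fasted replicate 2 a weight of 11.9 and fasted replicate 1 one of 0.21. The cause of these moves was not tested beyond what each alternative changes.

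Counts over all probe sets, lower and higher, were 1326 and 1426 with the 75th percentile, 1495 and 1263 with quantile normalization, 1625 and 269 with Welch's comparison and 6956 and 2469 with array weights. Higher ones were 419 with the 25th percentile as floor and 379 with dim probe sets left out. Without 1 array they were 1448 to 5562 lower and 472 to 1536 higher. Lower counts in the lists moved as follows. With Welch's comparison they were 3 for further transporters, 1 for the amino acid response, 2 for mTORC1 sensing, 0 for tRNA synthetases and 2 for metabolism. With the 75th percentile they were 1, 2, 0 and 3 for the last 4 lists, and with quantile normalization 1, 2 and 0 for response, sensing and synthetases. Array weights gave 0 for synthetases, the higher floor 1 for response and 2 for metabolism, and no trend 3 for metabolism. Higher counts were 7 (response), 3 (sensing) and 1 (synthetases) with the 75th percentile, 4 (response) and 2 (sensing) with quantile normalization, 0 for response and metabolism with Welch's comparison, and 4, 1 and 2 for response, synthetases and metabolism with array weights. They were 1 for synthetases and 2 for metabolism with a pseudocount or robust variance, 2 for metabolism without dim probe sets, 1 for further transporters with no trend, and 0 for sensing with the mean of all probe sets. Without 1 array the lower counts ran from 2 to 7 for further transporters, 1 to 3 for response, 2 to 4 for sensing, 0 to 2 for synthetases and 2 to 7 for metabolism, and the higher ones from 0 to 1, 1 to 4, 1 to 1, 0 to 1 and 0 to 2.

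The replicate numbers did not pair the arrays. Deviations of arrays with the same number correlated at -0.02, 0.10 and -0.08, and with the number as a block 0 transporters were called, as without it, and 2046 probe sets were lower and 644 higher.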
